A study of Sus scrofa with 6 samples.

Results

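The genes described here encode the SR proteins and the hnRNPs, 2 families of RNA-binding proteins that regulate pre-mRNA splicing. Members were taken by name: 11 genes whose pig Ensembl symbol is SRSF with a number, and 15 genes whose symbol begins with HNRNP, 26 of the 35670 gene identifiers in the count table. All 26 had enough reads to be tested. SRSF8, HNRNPA0, HNRNPA3, HNRNPAB, HNRNPC and HNRNPF were not matched by these symbols and were not analysed here.

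Granulosa cells, which line the ovarian follicle and nurse the oocyte, had been aspirated with the fluid of small pig (Sus scrofa) follicles and grown in culture to near confluence. Heat libraries (3) are from cells moved to 42 °C for 6 h, and control libraries (3) are from cells left at 37 °C over those hours. The labels name no allele or agent for either group, and no animal age or breed. The submitters call the libraries of a group biological replicates and name no animals, flasks or pools of follicles, so p-values measure only the spread between these libraries.

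SR proteins carry RNA recognition motifs and a tail rich in arginine and serine, and mostly promote the use of the exons they bind. Their activity depends on phosphorylation of that tail by the CLK and SRPK kinases. hnRNPs coat nascent RNA and often oppose SR proteins at splice sites, and several also act in RNA export, stability and translation. In other species heat alters splicing widely, and SR proteins are dephosphorylated or moved to nuclear bodies. RNA levels, which are what was measured here, show neither.

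Deposited counts summed to between 20411952 and 29606378 per heat library and between 18711440 and 22599356 per control library. Levels below are CPM, read counts relative to a library size that was scaled by the trimmed mean of M-values (TMM), and they are compared for the same gene across libraries only. A gene is called where the quasi-likelihood F test of edgeR gave a Benjamini-Hochberg adjusted p below 0.05 over all 14242 tested genes. HSPA6, HSP70.2, HSPH1, DNAJB1 and HSPB1, inducible chaperone genes that check the treatment, were all called higher, with summed levels of 7994, 7881 and 7925 CPM in heat and 384, 281 and 307 CPM in control. Heat 1 and heat 2 were much alike (Pearson correlation of log2 CPM across genes 0.991), as were control 2 and control 3 (0.990), whereas heat 3 and control 1 correlated with the rest of their groups at 0.909 to 0.916 and 0.901 to 0.905. The alike pairs still differed by more than counting noise (chi-square per degree of freedom 16.4 and 19.8). Ribosomal protein genes followed these libraries rather than the groups, with median log2 CPM of 6.12, 5.94 and 7.90 in heat 1, 2 and 3 and 6.31, 7.89 and 8.03 in control 1, 2 and 3. Stromal markers, 7 of 7 tested, summed to 87925, 79384 and 28082 CPM in heat 1, 2 and 3. In control 1, 2 and 3 they summed to 59118, 7421 and 6698 CPM. Leukocyte markers, 3 of 8 tested, summed to between 1.22 and 4.29 CPM in heat and between 3.20 and 57.6 CPM in control, with no read of the T cell gene CD3E. LYZ was called lower, but its groups overlapped, with 0.848, 0.186 and 0.244 CPM in heat and 0.467, 26.3 and 54.1 CPM in control. Ovarian surface markers, 2 of 5 tested and both called higher (KRT8 and UPK3B), summed to between 9.18 and 13.0 CPM in heat and between 1.70 and 4.94 CPM in control. Of 16 granulosa cell markers 14 were matched and 9 tested, these summing to between 764 and 1067 CPM in heat and between 459 and 1213 CPM in control. Of these 9, 7 had positive and 2 negative fold changes, and none was called. The receptor gene FSHR and the inhibin gene INHA, neither of them tested, had at most 2 reads in any heat library and at most 49 in any control library. AMH, AMHR2 and HSD17B1, also untested, had at most 9 and 7 reads. Smooth muscle markers, 5 of 5 tested, summed to between 6727 and 14696 CPM in heat and between 9984 and 10253 CPM in control. The theca marker PTCH1 had 29.1, 27.4 and 5.75 CPM in heat and 10.0, 1.53 and 1.64 CPM in control. The oocyte gene GDF9 was called higher (15.7 ± 5.48 CPM in heat, 5.90 ± 0.676 CPM in control). The part that these differences in cell makeup play in the values below was not tested. In bulk RNA, fewer cells of a type and less RNA per cell cannot be told apart.

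Of the 11 SR protein genes, SRSF11 and SRSF10 fell in heat, none rose and 9 did not pass. Of the 15 hnRNP genes none passed by edgeR, with 0 higher and 2 lower (HNRNPDL and HNRNPR) at an unadjusted p below 0.05. Over all tested genes edgeR called 11% in either direction, 6.71% higher and 4.32% lower, against 7.69% of the 26 members, all of them lower. At an unadjusted edgeR p below 0.05, 4 SR protein genes were lower and 0 higher, and 14.4% of all tested genes were lower and 19.5% higher. DESeq2 called HNRNPDL, HNRNPR and 4 SR protein genes lower, where it called 12.6% of all tested genes lower and 14.9% higher. With limma-voom 2 SR protein genes and no hnRNP gene were called, against 5.14% of all tested genes lower and 7.41% higher. The median log2 fold change, heat minus control, was -0.56 for SR protein genes and -0.37 for hnRNP genes, and 0.05 for all tested genes. Negative fold changes were found for 10 of 11 SR protein genes and 10 of 15 hnRNP genes, against 6826 of all 14242 tested genes. The groups did not overlap, with all heat libraries below all controls, for 6 SR protein genes and 5 hnRNP genes, 42.3% of the members against 16.8% of all tested genes (37.8% in either direction). With all heat libraries above all controls there was 1 member (HNRNPL), 3.85% against 20.9% of all tested genes. When counts were scaled to the library total alone, the lower set shrank to 3 SR protein genes (SRSF10, SRSF11 and SRSF12) and 2 hnRNP genes (HNRNPDL and HNRNPU), and the higher set was HNRNPL and HNRNPUL2, against 10.6% of all tested genes lower and 26.6% higher.

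**Figure D1:**
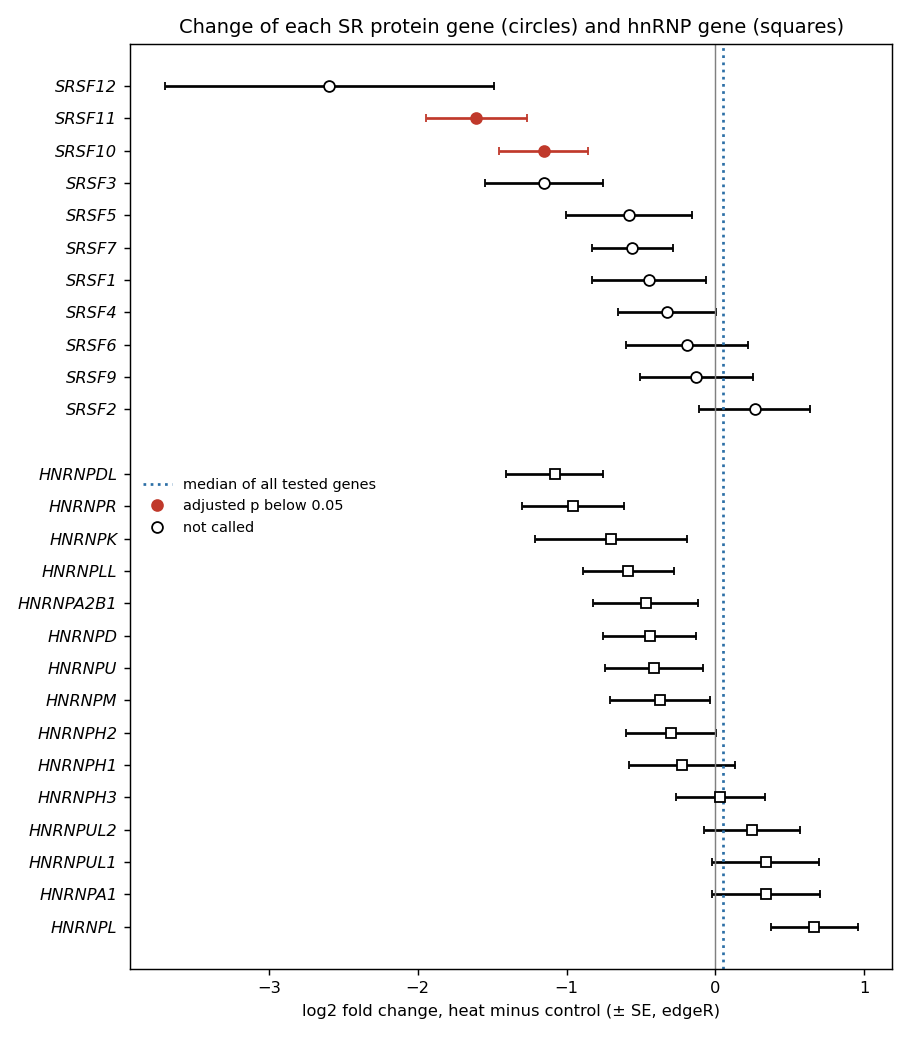
Log2 fold change (heat minus control, ± SE, edgeR, n = 3 libraries per group) of each SR protein gene (circles) and hnRNP gene (squares), sorted within each family, with called genes filled red and the median of all tested genes as a dotted line. SRSF11 (-1.61) and SRSF10 (-1.15) are the called members, and HNRNPL (0.67) lies farthest to the right.

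SRSF11, also known as p54, an SR-related factor that binds the 3' splice site machinery, had the smallest spread among heat libraries of the 26 members. Heat 1, 2 and 3 held 140.1, 142 and 139 CPM, and control 1, 2 and 3 held 553, 358 and 372 CPM. The 3 heat libraries lay within 1.02-fold of each other, heat 3 included, and every control lay above all of them. The mean was 140.3 ± 1.48 CPM in heat and 427 ± 109 CPM in control (SD, n = 3 each), a log2 fold change of -1.61 ± 0.34 (SE; edgeR adjusted p = 0.0360). Between 2810 and 4544 reads in heat and between 7497 and 8276 reads in control lie behind these values. The adjusted p was 0.163, 0.155, 0.151 and 0.141 without heat 1, heat 2, control 2 or control 3, and the log2 fold change stayed between -1.75 and -1.40 with any single library left out. On Sscrofa11.1, SRSF11 lies on chromosome 6 at 142621904 to 142668107.

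SRSF10, also known as SRp38, is the member known in mammalian cells to turn into a general splicing repressor when heat shock removes its phosphates. Its RNA stood at 93.8, 101 and 89.8 CPM in heat and at 173, 229 and 233 CPM in control, again with no overlap and with heat 3 close to the other heat libraries. The means were 95.0 ± 5.91 CPM in heat and 211 ± 33.6 CPM in control (SD, n = 3 each), and the log2 fold change was -1.15 ± 0.30 (SE). The edgeR adjusted p of 0.0482 lay just inside the threshold. It was 0.0783 with library total scaling, 0.0913 without a filter, 0.0546 among genes with at least 10 CPM in 3 libraries, and between 0.172 and 0.191 without heat 1, heat 2, control 2 or control 3. SRSF10 also lies on chromosome 6, at 81727893 to 81741516.

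SRSF12, or SRrp35, is a relative of SRSF10 that opposes other SR proteins in splicing assays. It was barely detected, with 0, 1 and 31 reads in heat 1, 2 and 3 and 20, 71 and 43 reads in control 1, 2 and 3. These reads gave 0, 0.0465 and 0.947 CPM in heat and 1.34, 3.10 and 2.13 CPM in control, so the groups did not overlap. The test did not call it (log2 fold change -2.59 ± 1.11, SE; edgeR adjusted p = 0.144). Its log2 fold change ranged from -6.20 to -2.10 with single libraries left out. The lowest of these was without heat 3 (edgeR adjusted p = 0.0105), where 1 heat read remained and the fitted value depends on the prior count. SRSF12, SRSF11, SRSF10 and SRSF3 had the lowest fold changes of the SR family.

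**Figure D2:**
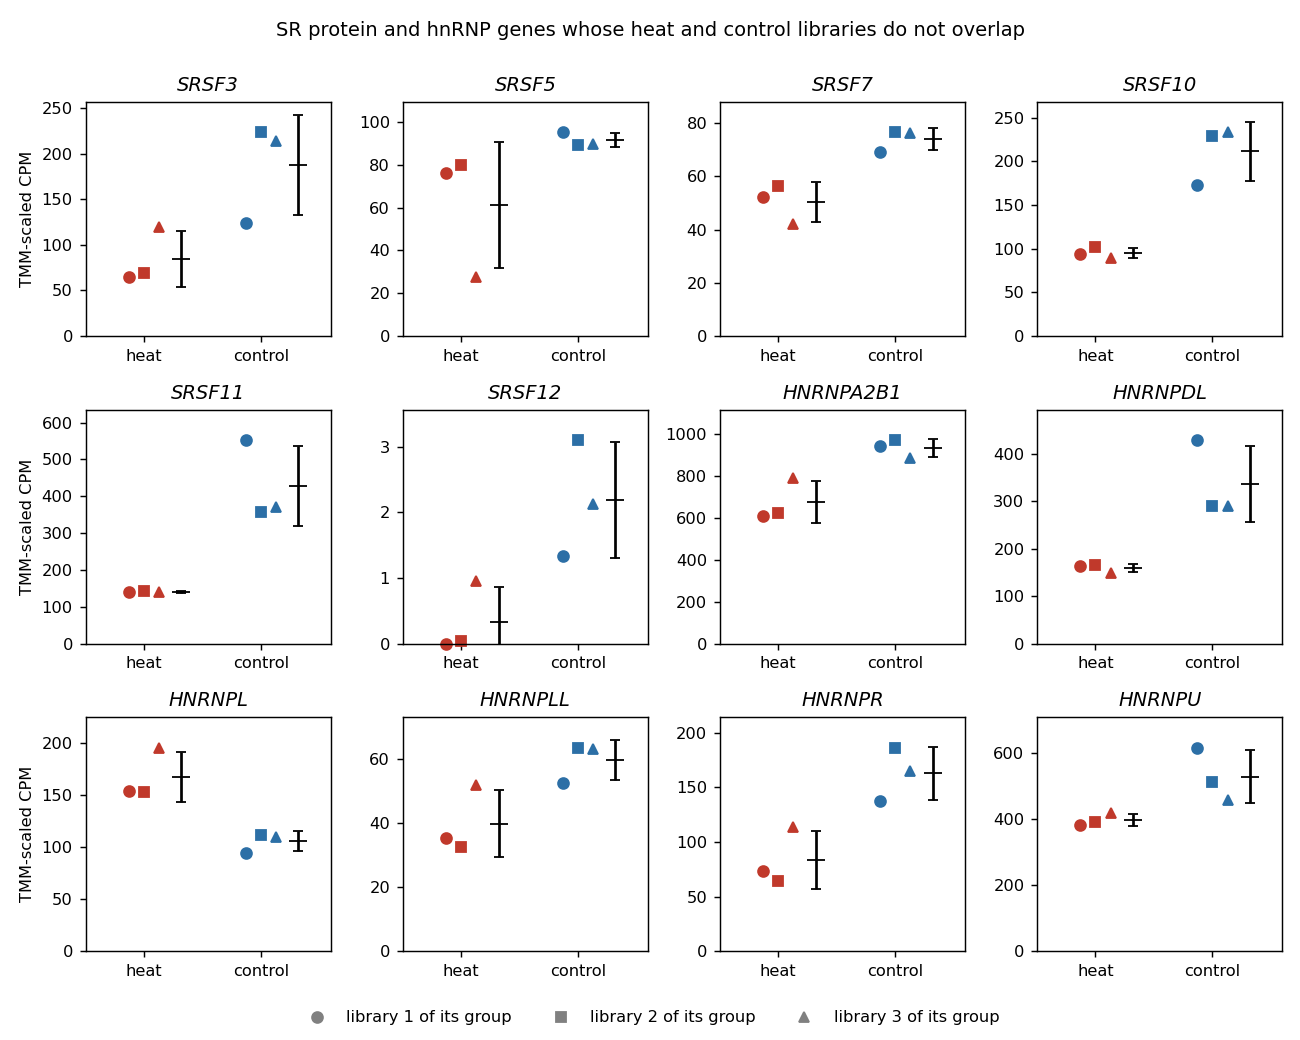
TMM-scaled CPM (vertical axes, from 0) of the 12 members whose heat (red, left) and control (blue, right) libraries do not overlap, with the marker giving the library number and black bars the mean ± SD of 3 libraries, cut at 0 for SRSF12. The 3 heat points of SRSF11 coincide near 140 CPM, while for SRSF5 heat 3 lies far below heat 1 and heat 2.

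Among the SR proteins that chiefly activate splicing, SRSF3, the smallest of them and also an adaptor for mRNA export, had values of 64.2, 68.7 and 120.0 CPM in heat and 124, 223 and 214 CPM in control. The groups were separated only by the narrow gap between heat 3 and control 1, and the gene was not called (log2 fold change -1.15 ± 0.40, SE; edgeR adjusted p = 0.0891). SRSF7, an export adaptor with a zinc knuckle, stood at 52.4, 56.4 and 41.9 CPM in heat and 69.0, 76.5 and 76.3 CPM in control, without overlap and without a call (edgeR adjusted p = 0.188). SRSF5 had 76.2, 80.2 and 27.5 CPM in heat and 95.3, 89.6 and 89.9 CPM in control. Its lower mean in heat rested mainly on heat 3, which was at 0.351 times the mean of heat 1 and heat 2.

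SRSF6 and SRSF4, close relatives of SRSF5 with long arginine and serine tails, also had their lowest value in heat 3. SRSF6 stood at 165, 174 and 68.6 CPM in heat and 182, 143 and 139 CPM in control. The values of SRSF4 were 66.8, 68.6 and 37.5 CPM in heat and 82.5, 65.6 and 69.0 CPM in control. In both genes the groups overlapped, and without heat 3 the log2 fold change of SRSF6 was 0.11, against -0.19 with all libraries.

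SRSF1, an activator that also acts in export and translation, showed the opposite pattern, with 105, 104 and 167 CPM in heat and 107, 214 and 190.4 CPM in control. Control 1 was as low as heat 1 and heat 2, and heat 3 was closer to control 2 and control 3. SRSF9, which in human cells joins SRSF1 in nuclear stress bodies after heat, had 26.5, 25.2 and 53.8 CPM in heat and 30.4, 42.4 and 42.4 CPM in control. Its highest library was heat 3, at 2.08 times the mean of heat 1 and heat 2. SRSF2, or SC35, which binds exonic enhancers and acts in transcription elongation, stood at 23.1, 21.2 and 25.0 CPM in heat and 10.3, 23.7 and 23.8 CPM in control. Its log2 fold change was the only positive one of the family (0.26 ± 0.37, SE), and without control 1 it was -0.06. The edgeR adjusted p-values of SRSF1, SRSF2, SRSF4, SRSF5, SRSF6 and SRSF9 lay between 0.357 and 0.830. On Sscrofa11.1, the annotated spans of SRSF1, SRSF2 and SRSF3 overlap other genes (METTL23 for SRSF2 and lncRNA loci for the other two), so their reads are uncertain.

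**Figure D3:**
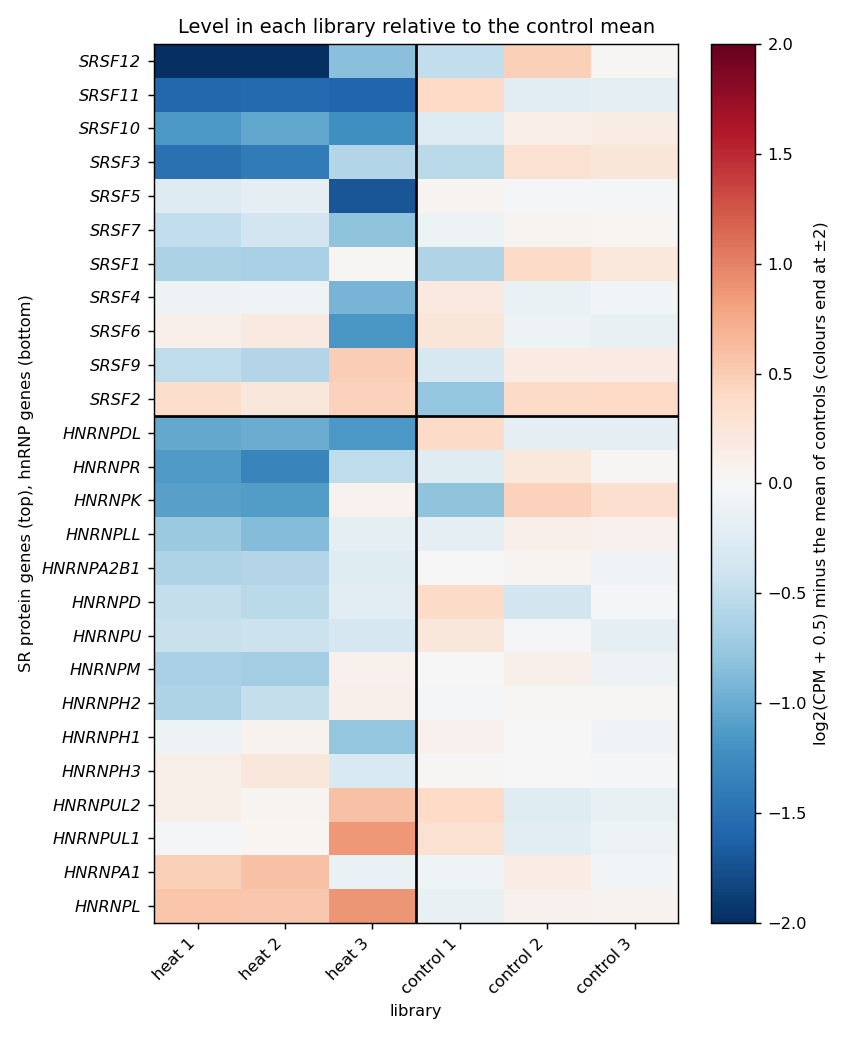
Log2(CPM + 0.5) of each member (rows) in each library (columns) minus its mean over the 3 controls, with blue below and red above that mean and colours ending at ±2. SRSF11, SRSF10 and HNRNPDL are blue in all 3 heat libraries, whereas SRSF1, SRSF9 and HNRNPK in heat 3 are close to or above the control mean and in control 1 below it.

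HNRNPDL, a relative of HNRNPD that regulates splicing and binds AU-rich RNA, had the lowest fold change of the hnRNPs. It stood at 163, 165 and 149 CPM in heat and 429, 289 and 289 CPM in control, with heat 3 close to the other heat libraries and control 1 the highest control. The means were 159 ± 8.79 CPM in heat and 336 ± 80.6 CPM in control (SD, n = 3 each), a log2 fold change of -1.08 ± 0.33 (SE) that did not pass (edgeR adjusted p = 0.0667). HNRNPD itself, or AUF1, which promotes decay of AU-rich mRNAs, had 80.9, 77.4 and 97.3 CPM in heat and 148, 88.1 and 112 CPM in control. Heat 3 lay above control 2, so its groups overlapped (edgeR adjusted p = 0.343). These genes lie close together on chromosome 8, HNRNPDL at 135802530 to 135809871 and HNRNPD at 135844492 to 135862633, with 34.6 kb and 1 other annotated gene between them.

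HNRNPR, an hnRNP that binds mRNA and is known for its role in axonal transport, stood at 73.3, 64.2 and 114 CPM in heat and 137, 186 and 165 CPM in control, without overlap (log2 fold change -0.96 ± 0.34, SE; edgeR adjusted p = 0.0951). Its locus lies 488 kb from that of SRSF10. HNRNPLL, known in lymphocytes for exon skipping in the CD45 transcript, had 35.3, 32.5 and 51.8 CPM in heat and 52.5, 63.5 and 63.2 CPM in control. Its groups were separated by less than 1 CPM and it did not pass (edgeR adjusted p = 0.211). HNRNPLL lies 145 kb from SRSF7 on chromosome 3.

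HNRNPL, the paralogue of HNRNPLL, which binds CA repeats and represses or activates exons by position, was the member with the largest positive fold change. It stood at 154, 153 and 195 CPM in heat and at 94.3, 112 and 110.0 CPM in control, with no overlap. The means were 167 ± 24.2 CPM in heat and 105 ± 9.63 CPM in control (SD, n = 3 each). The log2 fold change of 0.67 ± 0.29 (SE) did not pass (edgeR adjusted p = 0.151).

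HNRNPA1, the best known antagonist of SRSF1 in splice site choice, had 731, 797 and 484 CPM in heat and 495, 586 and 508 CPM in control. Heat 1 and heat 2 lay above all controls and heat 3 below all of them, and the test gave an edgeR adjusted p of 0.527. HNRNPA2B1, its close relative, had 609, 624 and 790.2 CPM in heat and 941, 972 and 886 CPM in control, without overlap and without a call (edgeR adjusted p = 0.368). HNRNPU, a scaffold attachment protein of the nucleus, had 383, 391 and 417 CPM in heat and 616, 513 and 456 CPM in control, also without overlap (edgeR adjusted p = 0.398). Processed copies of HNRNPA1 and of other hnRNP genes are common in mammalian genomes, and no source used here says how reads that match several copies were counted. The span of HNRNPA2B1 overlaps NFE2L3, and those of HNRNPD, HNRNPH3, HNRNPK and HNRNPU overlap other annotated loci.

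HNRNPK, which binds C-rich RNA and DNA, varied more within the groups than between them, with 224, 219.7 and 502 CPM in heat and 272, 661 and 606 CPM in control. Heat 3 was at 2.26 times the mean of heat 1 and heat 2, and control 1 at 0.430 times the mean of control 2 and control 3, and the libraries with the higher values (heat 3, control 2 and control 3) were those in which ribosomal protein genes were high. HNRNPM, which regulates exon choice in epithelial and mesenchymal cells, had 103, 99.6 and 172 CPM in heat and 162, 174 and 149.7 CPM in control. Here control 1 lay between the other controls, and of the heat libraries heat 3 alone overlapped them.

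The HNRNPH group binds runs of G. HNRNPH1 stood at 349, 394 and 218 CPM in heat and 397, 372 and 356 CPM in control. The values of HNRNPH3 were 164, 177 and 122 CPM in heat and 154, 149.5 and 148 CPM in control. In both, heat 3 was the lowest library, as for SRSF4, SRSF5 and SRSF6. HNRNPH2, on the X chromosome, ran the other way, with 30.7, 33.8 and 50.8 CPM in heat and 46.0, 47.9 and 47.7 CPM in control. HNRNPUL1 and HNRNPUL2, relatives of HNRNPU that take part in DNA repair, had their highest level in heat 3, at 182 and 144 CPM, and overlapping groups. The edgeR adjusted p-values of these 5 genes, HNRNPK and HNRNPM lay between 0.352 and 0.946.

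As a family, SR protein genes took a smaller number of reads relative to hnRNP genes in heat. The ratio of summed SR protein to summed hnRNP counts, which no scaling changes, was 0.246, 0.245 and 0.209 in heat 1, 2 and 3 and 0.341, 0.335 and 0.356 in control 1, 2 and 3. Every heat library lay below every control, including heat 3 and control 1. Reads per gene depend on transcript length, so the ratio is not one of molecules. Without SRSF11 it was 0.204, 0.204 and 0.171 in heat and 0.209, 0.253 and 0.265 in control, so heat 1 and heat 2 then lay close to control 1.

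Within the SR family SRSF11 took 17.4 ± 0.588% of the reads in heat and 29.6 ± 7.94% in control (SD, n = 3 each), with control 1 the highest at 38.7%. SRSF10 took 11.7 ± 0.274% in heat and 14.6 ± 2.16% in control, and its lowest control library and highest heat library both rounded to 12.1%. Shares within a family depend on each other, so a smaller share of SRSF11 goes with larger shares of other members. Shares of SRSF2 were small, at 2.84, 2.53 and 3.25% in heat and 0.720, 1.61 and 1.64% in control, without overlap, whereas its CPM overlapped. SRSF7 (6.44, 6.71 and 5.43% in heat, 4.84, 5.21 and 5.25% in control) also took larger shares in heat without overlap, though its CPM was lower. SRSF9 did so too, with 3.26, 2.99 and 6.97% in heat and 2.13, 2.89 and 2.92% in control. Within the hnRNPs, HNRNPL took 4.80 ± 0.437% of the reads in heat and 2.5 ± 0.229% in control, and HNRNPDL took 4.59 ± 0.488% in heat and 7.98 ± 1.97% in control, in both cases without overlap. HNRNPA1 took 22.1, 23.2 and 13.1% in heat and 11.8, 13.4 and 12.5% in control, so its larger mean share in heat came from heat 1 and heat 2.

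**Figure D4:**
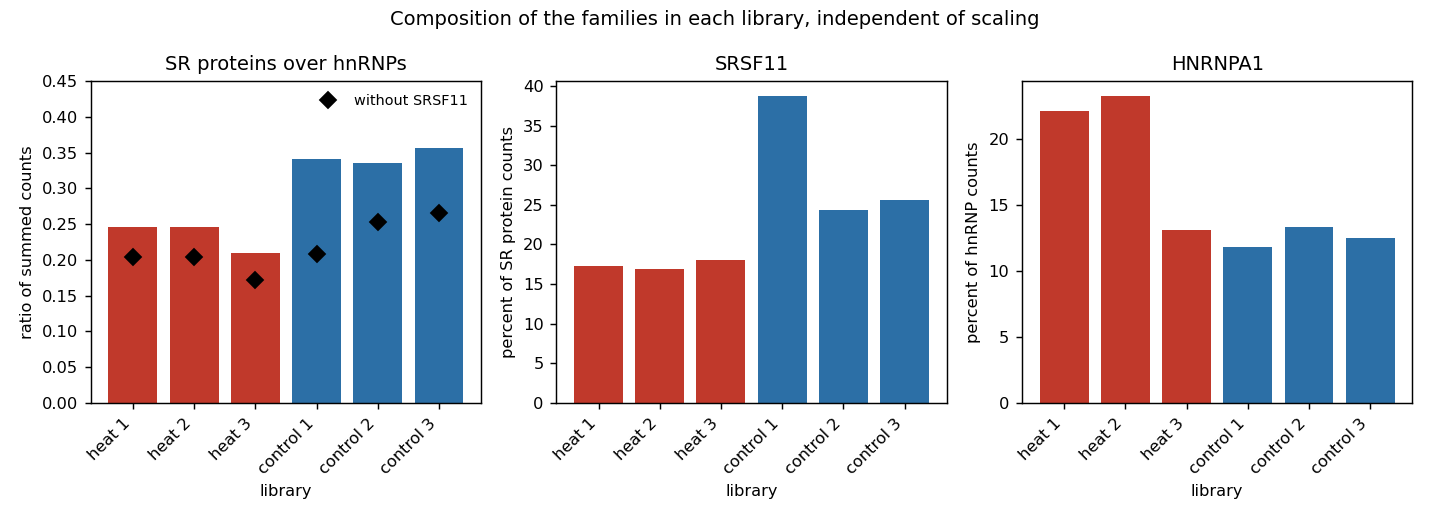
Ratio of SR protein to hnRNP counts (left; diamonds leave out SRSF11), percent of SR protein counts from SRSF11 (middle) and percent of hnRNP counts from HNRNPA1 (right) in each heat (red) and control (blue) library. The ratio lies between 0.209 and 0.246 in heat and between 0.335 and 0.356 in control, and HNRNPA1 in heat 3 is at the level of the controls.

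Libraries that stand apart changed how many members passed. Without control 1 and heat 3, edgeR called 7 SR protein genes lower (SRSF1, SRSF3, SRSF7, SRSF9, SRSF10, SRSF11 and SRSF12) and, among hnRNP genes, 9 lower and 3 higher (HNRNPA1, HNRNPL and HNRNPUL2). In that fit of 4 libraries 38.4% of all tested genes were called lower and 41.2% higher, and each group was a pair of nearly identical libraries. DESeq2 on those 4 libraries called 7 SR protein and 9 hnRNP genes lower and 2 hnRNP genes higher, against 35.2% of all tested genes lower and 36.1% higher. Without control 1 alone 3 SR protein and 2 hnRNP genes were called lower and none higher, against 12.3% of all tested genes lower and 19.6% higher. Without heat 3 alone 4 and 4 were called lower and none higher, against 17.7% of all tested genes lower and 18.4% higher. Without heat 1, heat 2, control 2 or control 3 no member was called, and at most 7 genes were called in all. The log2 fold changes of SRSF11 and SRSF10 in the fit of 4 libraries were -1.39 and -1.26.

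**Figure D5:**
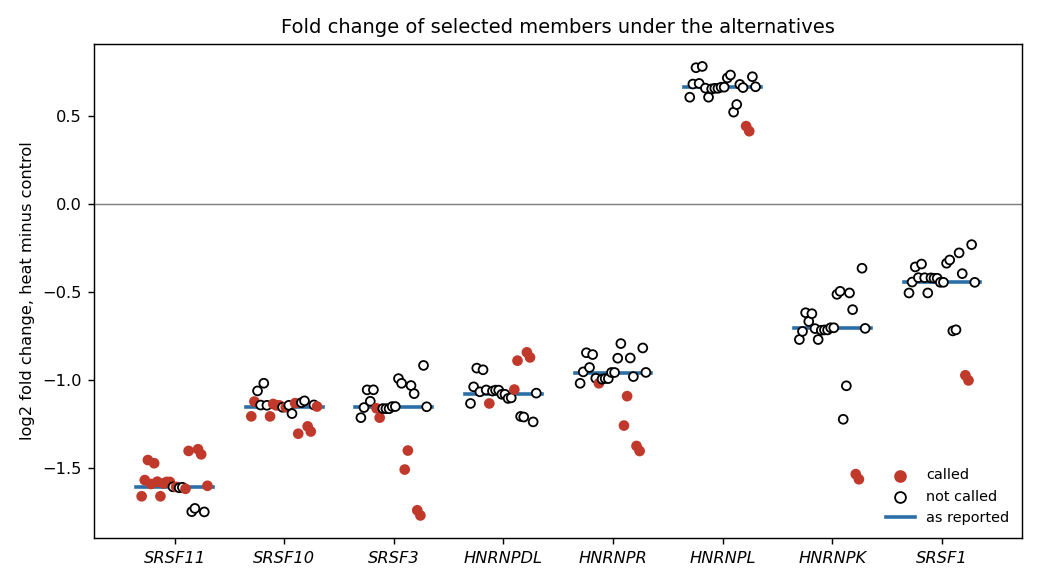
Log2 fold change (heat minus control) of 8 members under each alternative (points, red where called, open where not), with the reported value as a blue line. SRSF11 (-1.75 to -1.39) and SRSF10 (-1.30 to -1.02) move little, whereas SRSF3, HNRNPK and SRSF1 shift to lower values in the fits without control 1, heat 3 or both.

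The wider splicing machinery was read from 5 lists of textbook members. Of 30 tested proteins with arginine and serine domains other than SRSF proteins, 4 fell, 2 rose and 24 did not pass, and the median log2 fold change was -0.70. Calls lower made up 13.3% and calls higher 6.67%, against 4.32% and 6.71% of all tested genes. PPIG, a nuclear cyclophilin, fell to 40.6 ± 3.49 CPM in heat, against 158 ± 8.28 CPM in control (SD, n = 3 each; edgeR adjusted p = 0.0273). SCAF11, which binds the polymerase tail, and BCLAF1, a component of mRNA processing complexes, fell by 1.56 and 1.92 on the log2 scale, and SREK1, a splicing regulatory protein, by 1.07. U2AF2, which recognises the polypyrimidine tract, rose to 91.7 ± 30.8 CPM in heat, against 28.7 ± 6.63 CPM in control, and SRRM3 rose to 3.81 ± 2.19 CPM in heat, against 0.488 ± 0.333 CPM in control. The groups did not overlap, with heat lower, for 15 of these 30 genes, and with heat higher for 2, where all tested genes gave 16.8% and 20.9%.

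Among 16 tested genes of the list of kinases and phosphatases of SR proteins, CLK4 fell (30.6 ± 2.65 CPM in heat, 65.0 ± 4.44 CPM in control; edgeR adjusted p = 0.0441), PPP1R10 rose and 14 did not pass. That list also holds phosphatase subunits and the import receptor TNPO3. Calls higher and calls lower each made up 6.25% of it, against 6.71% and 4.32% of all tested genes. PPP1R10, a nuclear subunit of protein phosphatase 1, stood at 111, 125 and 36.5 CPM in heat and 29.9, 11.4 and 12.9 CPM in control, so heat 3 was near control 1. Of 39 tested core spliceosome genes, SF1, the branch point binding protein, and PRPF19, a ubiquitin ligase of the spliceosome, rose. Calls higher made up 5.13% of these 39 genes, against 6.71% of all tested genes. SF1 had 96.8 ± 6.01 CPM in heat and 40.3 ± 13.5 CPM in control, and PRPF19 had 34.9 ± 2.36 CPM in heat and 15.1 ± 2.94 CPM in control (SD, n = 3 each). The median of the core genes was 0.06, close to that of all tested genes. Their groups did not overlap for 10 with heat higher (25.6%, against 20.9% of all tested genes) and 5 with heat lower (12.8%, against 16.8%).

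Among 15 tested hnRNPs that carry other symbols, PCBP4, a poly(C)-binding protein, rose to 19.8 ± 2.61 CPM in heat, against 6.74 ± 1.62 CPM in control, none fell and 14 did not pass. Of 20 tested tissue- and signal-dependent splicing regulators, RBM38, a p53 target that binds mRNA, rose to 2.23 ± 0.418 CPM in heat, against 0.284 ± 0.0757 CPM in control, and 19 did not pass. Few reads lie behind RBM38, with 52, 50 and 58 in heat 1, 2 and 3 and 3, 7 and 7 in control 1, 2 and 3. The medians of these lists were -0.20 and -0.38. Among the other hnRNPs the groups did not overlap for 5 genes with heat higher (33.3%) and 3 with heat lower (20%). Among the regulators these were 2 (10%) and 6 (30%), against 20.9% and 16.8% of all tested genes. In the 5 lists together 7 genes rose and 6 fell of 120 tested, beside the 11% called over all genes. Groups that did not overlap numbered 21 with heat higher and 33 with heat lower, where all tested genes gave 20.9% and 16.8%. Without heat 1, heat 2, control 2 or control 3 none of the 120 was called, and without control 1 and heat 3 the counts were 39 higher and 65 lower, where 41.2% of all tested genes were called higher and 38.4% lower.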

How the data were processed

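Per the labels, stranded mRNA libraries were read as paired ends, and per the submitters' processing notes FastQC 0.11.4, Trim Galore and STAR were used with the Sscrofa11.1 build. No source used here names the counting tool, its strand setting or the annotation release. In the deposited raw table the authors give whole read counts for each Ensembl identifier. The deposited normalized table holds a signal, which the authors made by dividing the counts of 13298 genes by 1 factor per library. When multiplied back, 100% of these values were whole within 1e-06, and edgeR called 1631 genes on the recovered reads.

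Groups came from the labels. Symbols were found for 15623 of 35670 identifiers, and coordinates are those of RefSeq genes with the same symbol on Sscrofa11.1. Genes were kept by filterByExpr (minimum count 10), scaled by TMM and compared as heat minus control in R 4.3.3 with edgeR 4.0.16 (glmQLFit with robust dispersions, two-sided glmQLFTest). Each SE was obtained from F, as |log2 fold change| over its square root. Replicates had a common biological coefficient of variation of 43.6%. Correlations used log2 CPM with a prior count of 2. Alternatives were 3 other scalings, no filter, a filter of 10 CPM in 3 libraries, a replicate block, DESeq2 1.42.0, limma-voom and limma 3.58.1 on the log2 normalized values with pseudocounts of 1 and 0.5, an adjusted p below 0.01, a minimum fold of 2 and leaving out each library. Added after seeing the data were fits without control 1 and heat 3 (edgeR and DESeq2), with near-identical libraries summed, and on recovered reads.

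Members and lists were chosen with earlier results of these data known. Values per library are given for members that passed, members whose groups did not overlap, those with the most reads, and SRSF1, SRSF2, SRSF3, SRSF7, SRSF9, SRSF10, HNRNPA1, HNRNPA2B1, HNRNPK, HNRNPU and HNRNPD. The other members were added after their values were seen. From each splicing list up to 4 called genes were named (1 result is not reported here), and SCAF11 and SREK1 were added so that all calls of the arginine and serine list are given. The 5 lists were other hnRNPs, other proteins with arginine and serine domains, kinases and phosphatases of SR proteins, the spliceosome core, and tissue- and signal-dependent regulators. On simulated data of 14242 genes the test recovered 2, 34, 74 and 98% of 50 genes each at 2-, 4-, 8- and 16-fold and called 7 unchanged genes. The simulated libraries varied independently, without the near-identical pairs of the real groups, so these rates need not hold for the real libraries.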

Additional observations from a re-analysis of the deposited data

How the results depend on the processing

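With all 6 libraries the calls were few and fragile, and gene counts do not separate isoforms. The coefficient of variation of 43.6% limits detection. Across 22 alternatives the fold changes of SRSF11, SRSF10, SRSF3, HNRNPDL, HNRNPR and HNRNPL kept their direction, and SRSF11 was called in 16 and SRSF10 in 12. These alternatives share libraries, so the tallies are not independent evidence. Those with an adjusted p below 0.01 or a minimum fold of 2 reuse the reported fit, where no direction could change. With near-identical libraries summed the edgeR adjusted p was 0.398 for SRSF11 and 0.535 for SRSF10. The causes of the changes below were not tested.

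Against 2 SR protein genes called lower, the count was 1 with library total scaling, without a filter and with the filter of 10 CPM, 4 with DESeq2, 0 with an adjusted p below 0.01, 7 without control 1 and heat 3 with edgeR and with DESeq2, and 0 with near-identical libraries summed, with a range of 0 to 4 when single libraries were left out. Against 0 hnRNP genes, DESeq2 called 2 lower. Without control 1 and heat 3 edgeR called 3 higher and 9 lower and DESeq2 2 higher and 9 lower, and leaving out single libraries gave 0 to 4 lower.

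The medians of -0.56 and -0.37 for SR protein and hnRNP genes became -0.24 for hnRNP genes with library total scaling, a scaling that moved the median of all genes by 0.12. The SR protein median was -0.37 with the filter of 10 CPM, which drops SRSF12, and -0.74 with edgeR and -0.77 with DESeq2 without control 1 and heat 3. With single libraries left out the medians ranged from -0.64 to -0.57 and from -0.57 to -0.29.

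Over all genes 956 were called higher and 615 lower. These counts were 1583 and 416 with library total scaling (79.2% of calls higher, against 60.9%), 1607 and 850 without a filter, 532 and 396 with the filter of 10 CPM, 2118 and 1792 with DESeq2, 9 and 1 with an adjusted p below 0.01, 6285 and 5857 with edgeR and 5500 and 5373 with DESeq2 without control 1 and heat 3, and 2 and 0 with near-identical libraries summed. Without single libraries they ranged from 0 to 3021 and from 0 to 2713. Wider splicing genes, 7 higher and 6 lower, changed to 10 higher and 3 lower with library total scaling, 10 and 24 with DESeq2, 0 and 0 with an adjusted p below 0.01, 39 and 65 with edgeR and 34 and 65 with DESeq2 without control 1 and heat 3, and 0 and 0 with near-identical libraries summed, and ranged from 0 to 20 and from 0 to 36 without single libraries.

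Deviations from the group means correlated at 0.299, -0.232 and 0.223 between same-numbered heat and control libraries. Each group held a near-identical pair and a library apart, so these values cannot settle whether the numbers mark pairs. The numbers were not taken as pairs. With the replicate block 2104 genes were called higher and 1300 lower, 12 and 12 of the wider splicing genes, and 3 SR protein genes lower (SRSF3, SRSF11 and SRSF12), with SRSF10 at an adjusted p of 0.0503.

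Some uncalled members changed sign. HNRNPH3 was at -0.0146 with DESeq2 size factors, at -0.0147 with DESeq2, and at -0.086 with near-identical libraries summed, where SRSF9 was at 0.088. Without control 1 and heat 3 SRSF2 was at -0.12 and -0.15, SRSF6 at 0.24 and 0.21 (edgeR and DESeq2) and HNRNPH1 at 0.0083 (edgeR). With single libraries left out SRSF2 ranged from -0.061 to 0.41, SRSF6 from -0.39 to 0.11, SRSF9 from -0.59 to 0.064, HNRNPH3 from -0.062 to 0.16 and HNRNPUL1 from -0.030 to 0.49.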
